A study of Rattus norvegicus with 43 samples.

Results

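The comparison described here is the effect of grain at low amylose: distal colon from rats fed low-amylose wheat (LAW) against distal colon from rats fed low-amylose maize starch (LAMS). All arrays labelled with these diets were taken, 6 for LAW and 7 for LAMS, which is 13 of the 43 arrays in the series. Every animal was a Sprague Dawley rat aged 11 weeks, and each array carried labelled RNA made from 100 ng of total RNA of 1 rat. The corresponding high-amylose diets, wheat (HAW, n = 8) and maize starch (HAMS, n = 8), served as the comparison for the same grain contrast at the other starch type; the remaining diets entered the fit only for the estimate of spread. The labels name the diets by code; that the codes stand for grains and starch types within a Western diet is known of the study and not written in the labels.

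Amylose is the mostly linear component of starch, and starch rich in it resists digestion in the small intestine and reaches the colon as a substrate for bacterial fermentation. Low-amylose starch is digested higher up, so at low amylose the diets differ in the grain that carried the starch, with the protein, fibre and other components that come with wheat. In the distal colon, absorptive colonocytes take up water, ions and short-chain fatty acids, and goblet cells secrete mucus together with proteins that act on bacteria and parasites.

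No gene passed the test between LAW and LAMS after adjustment over the 10828 genes tested. With limma and Benjamini-Hochberg adjustment, 0 genes passed 0.05 (0%, adjusted p = 0.9998 for every gene). An unadjusted p under 0.05 was seen for 188 genes (1.74%), of which 81 (0.748%) were higher in LAW and 107 (0.988%) lower. Where no gene differs, a threshold of 0.05 passes a larger share than 1.74% on average. Differences are LAW minus LAMS on the log2 scale, on which a difference of 1 is a 2-fold ratio, and are given ± SE; intervals are those of the log2 difference from limma. The median difference over all genes was 0.01, the median absolute difference was 0.08, and the 99th percentile of the absolute difference was 0.34. A difference above 0.5 in size was seen in 18 genes, and above 1 in 4 genes, which were Retnlb, Retnla, Slpi and Fam111a. The 95% interval around a difference extended 0.27 each way for the median gene, and 0.18 to 0.51 between the 5th and 95th percentiles of genes. For 8896 genes (82.2%) the whole interval lay within 0.5 of 0, and for 10631 genes (98.2%) it lay within 1 of 0. The 197 genes whose interval reached 1 or beyond included 14 of the 19 tested members of the T and NK cell list and 10 of 13 B cell and germinal centre genes; for these a 2-fold difference lay inside the interval.

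The same contrast at high amylose gave a different count. In HAW minus HAMS, 1445 genes passed (13.3%), 1193 of them higher in HAW (11%) and 252 lower, and 100 genes differed by more than 1. Those 1445 genes had a median difference of 0.43 in HAW minus HAMS and of 0.01 in LAW minus LAMS, where their quartiles were -0.07 and 0.07. Their median absolute differences were 0.45 and 0.07. The genes were picked by passing in HAW minus HAMS, a choice that by itself favours larger differences there. In LAW minus LAMS the interval of 1439 of these genes lay within 1 of 0, beside 98.2% of all genes tested. An unadjusted p under 0.05 was seen for 16 of them, beside 1.74% of all genes tested. The grain contrasts at the 2 starch types share no array. A direct test of the difference between them passed 3 genes, described below. HAW and HAMS arrays also differed in file name style and in the level of lymphoid genes, given below.

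**Figure D1:**
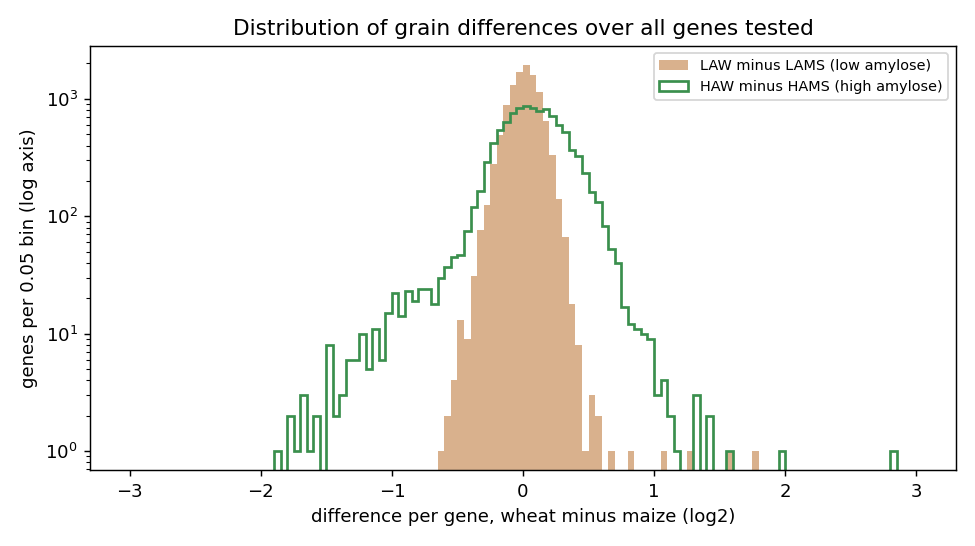
Histogram of the log2 difference per gene (x axis) over the 10828 genes tested, with the number of genes per bin on a log axis; filled bars are LAW minus LAMS and the outline is HAW minus HAMS. The LAW minus LAMS differences form the narrower distribution, with 4 genes beyond 1, against 100 genes beyond 1 in HAW minus HAMS.

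The arrays carried the markers of colonic mucosa. Median levels in LAW and LAMS were 11.28 and 11.25 for Epcam, an adhesion protein of epithelial cells, 10.69 and 10.73 for Slc26a3, the chloride and bicarbonate exchanger of colonocytes, and 8.68 and 8.54 for Cdx2, the intestinal transcription factor. Arrays differed in the level of lymphoid genes: the mean level of the 13 tested B cell and germinal centre genes was 5.71, 5.98 and 8.63 (lowest, median and highest) in LAW, against 5.68, 5.77 and 8.67 in LAMS. LAW replicates 1 and 3 and LAMS replicates 2, 3 and 4 stood above the others, and the groups overlapped (difference 0.11, exact two-sided permutation test p = 0.851, adjusted p = 0.851 over 2 array-level tests). The interquartile range over all probe sets, a mark of array quality, averaged 3.22 ± 0.15 in LAW and 3.21 ± 0.09 in LAMS (SD, exact permutation p = 0.806, adjusted p = 0.851). The array file names follow several styles, whose meaning the labels do not give: 5 LAW and 4 LAMS names were in lower case, and 1 LAW name (replicate 2) and 3 LAMS names (replicates 1, 5 and 7) were in capitals, each with an animal number. All 8 HAMS and 3 of 8 HAW names were also in capitals. In HAW minus HAMS the B cell and germinal centre list had a median of -1.43, against 0.09 in LAW minus LAMS. The interquartile range ran from 2.68 to 3.39 in HAW and from 2.72 to 3.16 in HAMS. The part of name style, lymphoid level and interquartile range in the HAW minus HAMS counts was not tested. Means ± SD are over 6 LAW and 7 LAMS arrays. In bulk tissue, fewer cells of a type and less RNA per cell cannot be told apart.

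Genes of secreted mucosal defence proteins held the 3 largest differences, none of which passed the test. Retnlb encodes resistin-like molecule beta, a goblet cell protein with activity against bacteria and a role in worm infection, and Retnla encodes its relative resistin-like molecule alpha, a product of macrophages and epithelia in type 2 immune responses. The genes lie on chromosome 11, Retnlb at chr11:65446433-65448319 and Retnla at chr11:65424685-65426484 (GRCr8), with 19948 bases between them. The promoter window of Retnlb, 250 bases before to 50 after the annotated start on the minus strand, is printed from RefSeq (GRCr8) because the gene had the largest difference of the comparison. Capitals mark matches to TTTAT, the core recognised by CDX factors, and to TTCNNNGAA, the palindromic core recognised by STAT factors.
Retnlb promoter, chr11:65448270-65448569: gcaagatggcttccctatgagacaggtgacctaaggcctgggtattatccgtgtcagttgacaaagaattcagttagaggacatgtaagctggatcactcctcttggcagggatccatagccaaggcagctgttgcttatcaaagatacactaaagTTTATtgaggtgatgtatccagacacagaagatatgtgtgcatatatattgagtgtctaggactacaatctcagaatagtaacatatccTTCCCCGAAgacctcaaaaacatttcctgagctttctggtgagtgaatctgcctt
The window was 43.0% GC. TTTAT occurred once, at position -94 from the start, and TTCNNNGAA once, at position -5. On both strands, 42.5% of all 33469 promoter windows of this length hold TTTAT and 8.87% hold TTCNNNGAA. The STAT core with 4 spacer bases between TTC and GAA (7.28% of promoters), TATAAA (14.2%) and CACGTG (6.42%) had no match in the window.

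Retnlb was 7.49, 9.21 and 10.45 (lowest, median and highest) in LAW, against 6.02, 7.65 and 8.83 in LAMS. Among the 6 LAW arrays 5 exceeded the LAMS median and 3 exceeded the highest LAMS array, and the groups overlapped. The difference was 1.80 ± 0.66, a 3.48-fold ratio (95% interval 0.47 to 3.13). Retnla was 6.33, 8.16 and 9.59 in LAW, against 5.38, 6.596 and 7.51 in LAMS. Again 3 LAW arrays exceeded the highest LAMS array and the lowest LAW array lay below the LAMS median. Its difference was 1.56 ± 0.65 (95% interval 0.24 to 2.87). Retnla was named after its values were seen. LAW replicate 2 was the highest array for both genes and LAW replicate 3, one of the arrays with a high lymphoid level, the lowest in LAW; without LAW replicate 2 the Retnlb difference was 1.55 and without LAW replicate 3 it was 2.14. At high amylose the differences of Retnlb and Retnla were 1.07 ± 0.59 and 1.14 ± 0.59, and the test of low minus high amylose gave limma adjusted p = 0.687 and 0.824. Within the lower-case name style the Retnlb difference was 1.67 and that of Retnla 1.17. Within animal numbers above 30, as read from the array file names, they were 1.23, the lowest Retnlb value of any alternative, and 1.21.

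Slpi, which encodes a secreted inhibitor of leukocyte proteases, was 6.84, 7.95 and 9.26 in LAW, against 5.48, 6.32 and 8.49 in LAMS. All 6 LAW arrays lay above the LAMS median, 1 exceeded the highest LAMS array, and the groups overlapped. The difference was 1.29 ± 0.52, a 2.45-fold ratio (95% interval 0.25 to 2.33). In HAW minus HAMS it was -0.51 ± 0.46, and the test of low minus high amylose did not pass (1.80 ± 0.69, limma adjusted p = 0.231). Fam111a, the remaining gene with a difference above 1, was 4.83, 7.45 and 8.17 in LAW, against 4.65, 5.47 and 7.72 in LAMS. Its levels spread over more than 3 log2 units in each diet and the groups overlapped (difference 1.09 ± 0.63, 95% interval -0.19 to 2.36). Within animal numbers above 30, as read from the array file names, it was 0.51. Pygl, the liver-type glycogen phosphorylase, was 7.00, 8.09 and 8.48 in LAW, against 6.74, 7.11 and 7.86 in LAMS. In 4 of the 6 LAW arrays it exceeded the highest LAMS array (difference 0.66 ± 0.25, 95% interval 0.15 to 1.18). Slpi, Fam111a and Pygl were also chosen after their values were seen.

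The mucosal innate defence list had 16 tested members of 27. None passed, and 2 had an unadjusted p under 0.05 (Retnlb and Slpi), beside 1.74% of all genes tested. A positive difference was seen in 13, and the list median was 0.07 beside 0.01 over all genes. Mptx1, a secreted pentraxin of the mucosa, was 10.35, 11.68 and 12.18 in LAW, against 10.10, 11.09 and 11.72 in LAMS (0.57 ± 0.45, 95% interval -0.34 to 1.48). Here 3 LAW arrays exceeded the highest LAMS array and the groups overlapped. Itln1, the galactofuranose-binding lectin intelectin 1, was 9.10, 10.46 and 11.27 in LAW, against 9.07, 10.35 and 11.01 in LAMS, a difference of 0.01 ± 0.36. Pigr, the receptor that carries IgA across the epithelium, was 12.03, 12.42 and 12.56 in LAW, against 12.005, 12.30 and 12.43 in LAMS, a difference of 0.08 ± 0.15. For Itln1 and Pigr the LAW arrays with the high lymphoid level, replicates 1 and 3, were the lowest of their diet. Pigr was named after its values were seen. Mean levels of Lyz2, lysozyme, were 7.80 ± 0.93 in LAW and 7.83 ± 0.70 in LAMS (SD).

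**Figure D2:**
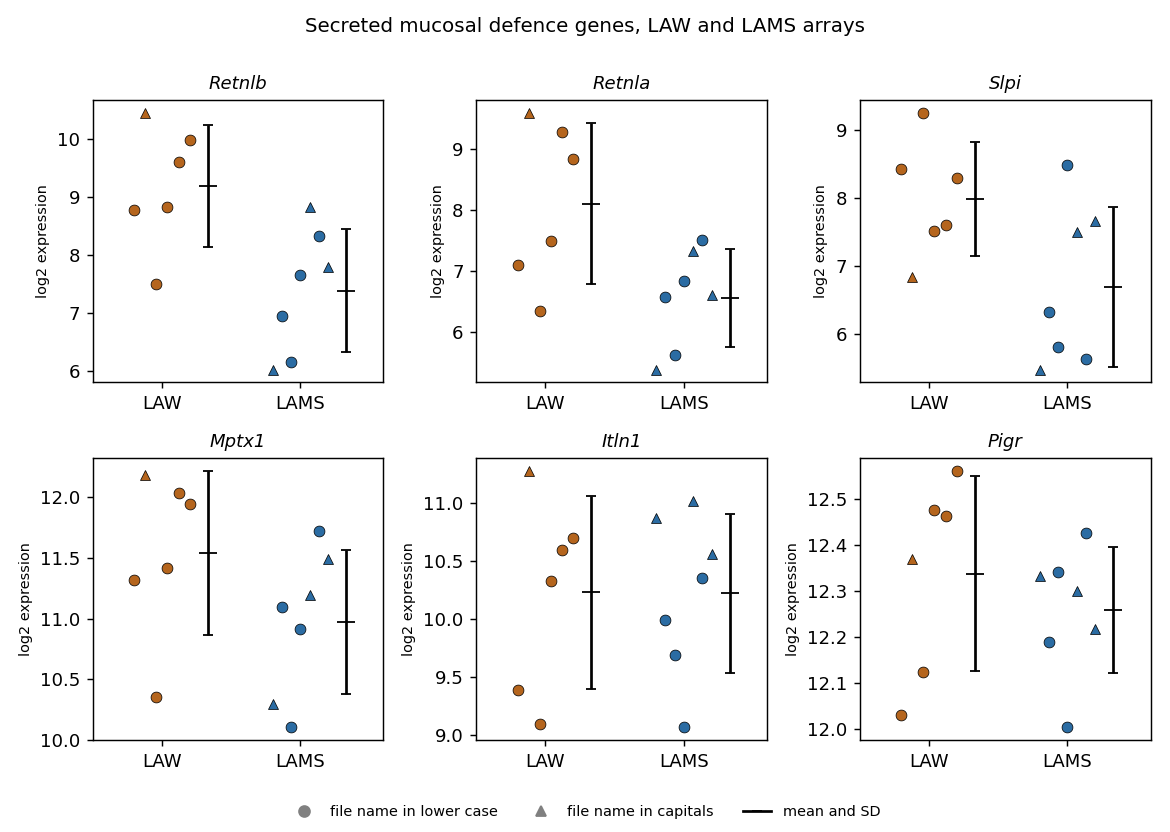
Log2 expression (y axis) of 6 secreted or mucosal defence genes on every LAW (left) and LAMS (right) array; circles are arrays with lower-case file names, triangles those with names in capitals, and bars show the mean and SD. For Retnlb, Retnla and Mptx1, 3 of the 6 LAW arrays lie above all LAMS arrays, and in every panel the groups overlap.

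Goblet cell genes as a list had a median difference of 0.06 over 18 tested members, and none passed. An unadjusted p under 0.05 was seen for 2 (Retnlb and Clca1), beside 1.74% of all genes tested. Retnlb is also a member of the defence list. Clca1, a secreted protease of the mucus layer, averaged 12.76 ± 0.17 in LAW and 12.52 ± 0.14 in LAMS (SD, difference 0.24 ± 0.10, 95% interval 0.03 to 0.45). Tff3, the trefoil peptide of mucus, differed by -0.18 ± 0.21, and Agr2, a disulphide isomerase needed for mucin folding, by -0.33 ± 0.24. Without LAW replicate 1 the Agr2 difference was -0.16, and within the lower-case style -0.06. Agr2 was named after its values were seen. The 21 tested mucin glycosylation genes had a median of -0.01, with C1galt1c1, the chaperone of the core 1 O-glycan synthase, at the low end (-0.43 ± 0.23, 95% interval -0.90 to 0.03); within the lower-case style C1galt1c1 stood at -0.13. In HAW minus HAMS 11 of the same 21 genes were higher, beside 11% of all genes tested, and 0 lower. The absorptive colonocyte list had a median of -0.02 over 18 members. Car1, carbonic anhydrase 1 of surface colonocytes, was 8.95, 9.20 and 11.20 in LAW, against 9.40, 10.06 and 10.60 in LAMS. Of the LAW arrays 4 lay below the lowest LAMS array and 1 above the highest, so the diets overlapped in both directions (-0.41 ± 0.41). The Car1 difference was -0.27 without LAW replicate 4 and -0.72 without LAW replicate 6. Aqp8, a water channel, differed by -0.05 ± 0.39, and the guanylin genes Guca2a and Guca2b, whose peptides drive fluid secretion, by -0.04 ± 0.20 and 0.07 ± 0.23.

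None of the tested genes that handle the products of fermentation passed. Slc16a1, the monocarboxylate carrier that takes up butyrate, was 9.87, 10.46 and 10.68 in LAW, against 10.15, 10.48 and 10.64 in LAMS, a difference of -0.11 ± 0.16; at high amylose it was 0.49. Transport and sensing of short-chain fatty acids had a median of 0.07 over 9 tested members and that of fatty acid oxidation and ketogenesis -0.05 over 26, with no member at an unadjusted p under 0.05. In HAW minus HAMS 3 of the 9 and 7 of the 26 were higher, beside 11% of all genes tested. Ion and water transport had a median of -0.04 over 29 members. Its lowest was Atp12a, the colonic proton and potassium pump, at 9.39, 9.72 and 10.37 in LAW, against 9.80, 10.28 and 10.76 in LAMS. For Atp12a 4 LAW arrays lay below the lowest LAMS array (-0.54 ± 0.29, 95% interval -1.12 to 0.04). Slc6a14, an amino acid transporter of the mucosa, differed by 0.06 ± 0.28. S100g, the vitamin D dependent calcium-binding protein calbindin-D9k, differed by -0.53 ± 0.35, by -0.32 without LAW replicate 2 and by -0.18 with array weights. Sat1, which acetylates polyamines for export, was 8.09, 8.41 and 8.81 in LAW, against 8.53, 8.78 and 9.16 in LAMS (-0.36 ± 0.16, 95% interval -0.69 to -0.03). Within the lower-case name style the Sat1 difference was -0.15. Sat1 had the smallest p of its list and was also chosen after its values were seen.

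Circadian clock genes had a median of 0.07 over 15 tested members, and none passed the test. An unadjusted p under 0.05 was seen for 2 of them, beside 1.74% of all genes tested. The list median was 0.01 with name style as a block and 0.08 within the lower-case style. Per3, a period gene of the negative arm of the clock, was 6.78, 7.14 and 7.55 in LAW, against 6.45, 6.66 and 7.10 in LAMS. All 6 LAW arrays lay above the LAMS median and 3 above the highest LAMS array (0.43 ± 0.14, 95% interval 0.15 to 0.72). With array weights its adjusted p was 0.0683, the smallest of any gene in any LAW minus LAMS fit that was run. Tef, which encodes a clock-controlled PAR bZIP factor, was 6.94, 7.30 and 7.51 in LAW, against 6.78, 6.99 and 7.41 in LAMS (0.25 ± 0.12, 95% interval 0.02 to 0.49). Its relative Dbp differed by 0.19 ± 0.12 and Nr1d2, the repressor REV-ERB beta, by 0.30 ± 0.17. Tef, Dbp and Nr1d2 were named after their values were seen. In the lower-case style alone the Nr1d2 difference was 0.14, and without LAMS replicate 1 it was 0.20. Bmal1, of the positive arm, differed by -0.16 ± 0.14, Clock by 0.10 ± 0.18, Per1 by -0.01 ± 0.20, Per2 by 0.09 ± 0.19 and Nr1d1 by -0.12 ± 0.14. The remaining members were Cry1 (0.02), Cry2 (0.06), Npas2 (0.07), Bhlhe40 (0.08), Nfil3 (-0.05) and Csnk1e (-0.07). Times of tissue collection are not in the sources used here.

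Among the 20 genes of smallest unadjusted p, 8 were higher in LAW and 12 lower, and all had adjusted p = 0.9998 in limma. RT1-M6-2, a non-classical MHC class I gene, came first: it was 4.82, 5.24 and 5.67 in LAW, against 5.49, 5.61 and 6.35 in LAMS (-0.48 ± 0.14, 95% interval -0.77 to -0.20). In 4 of the 6 LAW arrays it lay below the lowest LAMS array. The groups did not overlap for 3 genes (0.0277% of those tested). Med10, a subunit of Mediator, was 7.25, 7.49 and 7.56 in LAW, against 7.56, 7.74 and 8.07 in LAMS (-0.34 ± 0.11, 95% interval -0.56 to -0.13). Its groups all but touched, with the highest LAW array at 7.5604 and the lowest LAMS array at 7.5607. Nek11, a kinase of the DNA damage checkpoint, was 5.02, 5.13 and 5.26 in LAW, against 4.62, 4.92 and 5.00 in LAMS (0.27 ± 0.09, 95% interval 0.08 to 0.47). Akap5, a protein kinase A anchor, was 5.06, 5.12 and 5.44 in LAW, against 4.52, 4.91 and 5.02 in LAMS (0.34 ± 0.14, 95% interval 0.06 to 0.62). Within the lower-case name style the differences of RT1-M6-2 and Med10 were -0.31 and -0.18, and those of Nek11 and Akap5 were 0.25 and 0.32. Nek11 and Akap5 lay near 4.79, the median level below which genes were left out. Akap5 was named because its groups do not overlap, after the values were seen.

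The rest of the 20 had varied roles. Mthfd1, the folate enzyme that supplies one-carbon units, was 7.19, 7.65 and 7.90 in LAW, against 6.37, 7.20 and 7.41 in LAMS (0.51 ± 0.18, 95% interval 0.14 to 0.88). In 4 LAW arrays it exceeded the highest LAMS array. Pole, the catalytic subunit of DNA polymerase epsilon, differed by 0.42 ± 0.15, Rptor, the mTORC1 scaffold, by 0.26 ± 0.09, Dmap1, a subunit of the TIP60 complex, by 0.28 ± 0.10, Tox, a factor of T cell development, by 0.36 ± 0.13 and Zbtb37 by 0.41 ± 0.15. The lower ones were Rab12, a small GTPase of endosomes (-0.34 ± 0.11), Zcchc10 (-0.36 ± 0.12), Marchf2, a membrane ubiquitin ligase (-0.36 ± 0.12), Hebp1, which binds haem (-0.31 ± 0.10), Abracl (-0.36 ± 0.12), Mtrf1l, a mitochondrial release factor (-0.36 ± 0.12), Nifk, a nucleolar partner of Ki-67 (-0.28 ± 0.10), Ifitm3, an interferon-induced antiviral protein (-0.38 ± 0.14), and Magoh, of the exon junction complex (-0.50 ± 0.18). Within the lower-case style all 20 genes kept their direction, and 11 of the 20 differences were more than 1.5 times smaller. There Tox differed by 0.12, Zbtb37 by 0.26, Zcchc10 by -0.12, Marchf2 by -0.13, Rab12 by -0.17 and Mtrf1l by -0.19. As lists, cell cycle and replication had a median of 0.03 over 24 members, the interferon response 0.08 over 19 and splicing factors 0.02 over 32, each with 0 members at an unadjusted p under 0.05 in limma. The interferon median was -0.12 within the lower-case style.

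Cytoplasmic ribosomal protein genes as a list had a median of -0.03 over 36 tested members, 16 of them positive. Rpl39, a small protein of the large ribosomal subunit and not in that list, was 9.03, 9.38 and 9.63 in LAW, against 9.44, 9.71 and 10.68 in LAMS. All 6 LAW arrays lay below the LAMS median (-0.57 ± 0.19, 95% interval -0.96 to -0.17). The 3 LAMS arrays with names in capitals averaged 10.43 and the 4 in lower case 9.56, beside 9.33 for the 5 lower-case LAW arrays, and within the lower-case style the difference was -0.23. Oxidative phosphorylation genes differed with the name style as well. Of 31 tested members 2 had a positive difference, the median was -0.11 and none had an unadjusted p under 0.05; the list's mean level was 9.33 in LAW and 9.44 in LAMS, with 9.73 in the LAMS arrays named in capitals and 9.22 in those in lower case. With name style as a block the median was -0.01, and within the lower-case style it was 0.06. Mgmt, the enzyme that removes alkyl groups from guanine, differed by -0.32 ± 0.16, and by -0.01 within the lower-case style. In LAMS, arrays named in capitals also had a lower B cell and germinal centre level, 5.69 against 7.39 in lower case. Their interquartile ranges were 3.04, 3.21 and 3.12, against 3.24 to 3.28 in lower case. With lymphoid level as a covariate the oxidative phosphorylation median was -0.09. The parts of name style, lymphoid level and interquartile range in these differences were not tested beyond these fits.

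**Figure D3:**
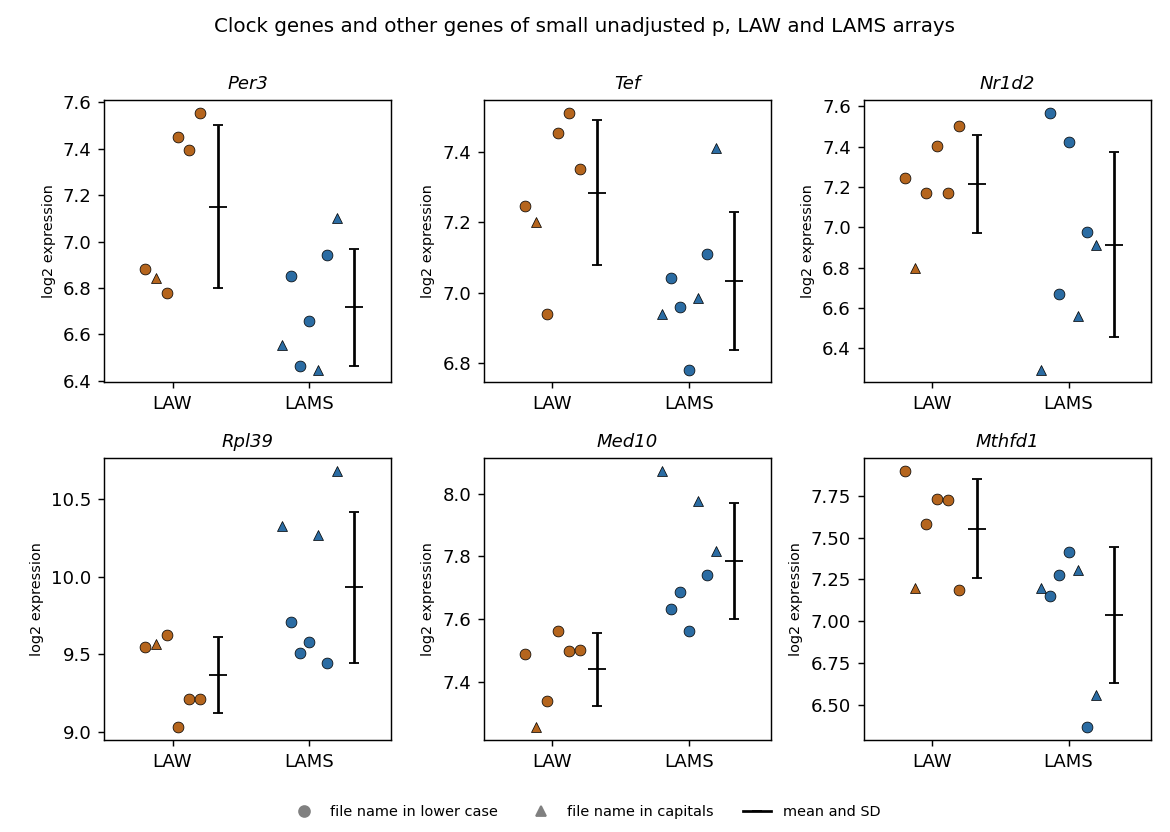
Log2 expression (y axis) of 3 clock genes and 3 other genes on every LAW (left) and LAMS (right) array, with file name styles and mean and SD as marked. Med10 alone of the 6 has groups that do not overlap, though they meet at 7.56. The LAMS arrays with names in capitals are the highest 3 of the arrays shown for Rpl39.

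Over 44 lists (23 pathway lists and 21 cell type lists), 768 of the 1015 distinct genes listed were tested and 0 passed. An unadjusted p under 0.05 in limma was seen for 11 genes, which is 1.43% of those tested in the lists, beside 1.74% of all genes tested. Beside those already named these were Il23a, a subunit of interleukin 23 (0.23 ± 0.10, and 0.14 without LAW replicate 2), Rps3, a ribosomal protein (0.20 ± 0.09), Asl, an enzyme of the urea cycle (-0.17 ± 0.08), and Mb, myoglobin (-0.27 ± 0.12, and -0.18 without LAW replicate 5). List medians lay between -0.15 (red blood cells, 3 tested members) and 0.17 (T and NK cells, 19 members), and 41 of 44 lay within 0.1 of 0. The T and NK cell list had 18 positive members, yet its mean level ran from 5.29 to 7.51 over the LAW arrays and from 5.18 to 7.34 over the LAMS arrays, and within the lower-case style its median was -0.20. The same list stood at -0.85 in HAW minus HAMS. Adipocyte genes, a mark of attached fat, had a median of -0.02 in LAW minus LAMS, and 0.90 in HAW minus HAMS, where 11 of 17 were higher, beside 11% of all genes tested; within the lower-case style the LAW minus LAMS median was 0.22. Adipoq, the adipocyte hormone adiponectin, averaged 5.85 ± 1.34 in LAW and 6.07 ± 1.07 in LAMS (SD). Smooth muscle genes, a mark of the depth of the tissue piece, had a median below 0.01 in size and a mean level from 9.44 to 10.02 in LAW, against 9.61 to 10.03 in LAMS. Fibroblast and matrix genes had a median of -0.04 and DNA repair genes one of 0.09 over 26 members, with 21 of them positive. The DNA repair median was 0.01 with name style as a block and also within the lower-case style. In that style 20 of the 44 list medians had the other sign, among them B cells and germinal centres (-0.51, and 0.09 over all LAW and LAMS arrays).

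**Figure D4:**
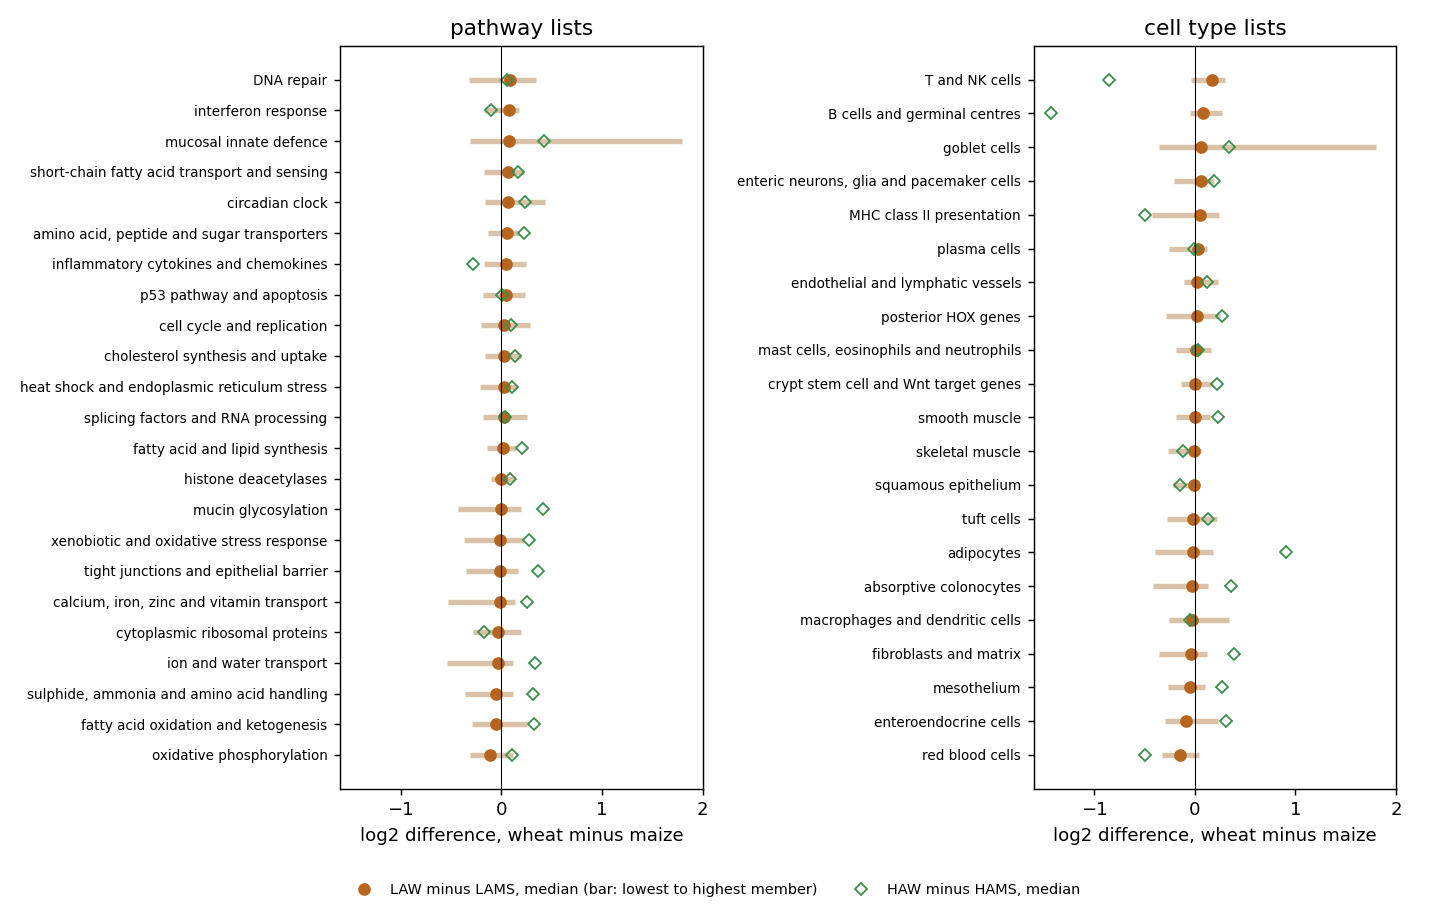
Median log2 difference (x axis) of each gene list, pathways on the left and cell types on the right; filled circles are LAW minus LAMS with bars from the lowest to the highest member, and open diamonds are the medians of HAW minus HAMS. The LAW minus LAMS medians lie between -0.15 and 0.17, with the longest bar in the defence and goblet cell lists, both of which hold Retnlb at 1.80.

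Whether the grain difference depended on starch type was tested gene by gene as LAW minus LAMS less HAW minus HAMS. In limma 3 genes passed (0.0277% of those tested), and 1662 genes (15.3%) had an unadjusted p under 0.05. For each of the 3 the HAMS mean was the highest or lowest of the 4 diets, and file names were in capitals for 1 of 6 LAW, 3 of 7 LAMS, 3 of 8 HAW and 8 of 8 HAMS arrays. Eif2s2, the beta subunit of the initiation factor eIF2, was 8.32, 8.51 and 8.80 in LAW and 8.73, 8.89 and 9.27 in LAMS, beside 8.61, 8.86 and 9.23 in HAW and 7.68, 7.90 and 8.57 in HAMS. Its difference was -0.41 ± 0.15 at low amylose and 0.84 ± 0.13 at high amylose, and the difference between them was -1.24 ± 0.20 (limma adjusted p = 0.00181). Ccdc107, which overlaps the neighbouring gene Arhgef39 in the RefSeq annotation, was 8.75, 9.04 and 9.75 in LAW and 7.95, 8.49 and 9.65 in LAMS, beside 7.85, 8.37 and 9.50 in HAW and 9.01, 10.10 and 11.25 in HAMS. It differed by 0.35 ± 0.28 at low amylose (0.21 without LAMS replicate 6) and by -1.65 ± 0.25 at high amylose (2.003 ± 0.38 between them, limma adjusted p = 0.0138). Rpph1, the RNA component of RNase P, was 11.49, 11.96 and 12.39 in LAW and 11.47, 11.87 and 12.12 in LAMS, beside 11.13, 11.72 and 11.97 in HAW and 12.21, 12.71 and 13.06 in HAMS. It differed by 0.16 ± 0.16 at low amylose and by -1.03 ± 0.15 at high amylose (1.19 ± 0.22, limma adjusted p = 0.0138). Lsm4 and Rdh14, the next in order, did not pass (limma adjusted p = 0.0743 and 0.0841). With name style as a block the differences between starch types were -1.22, 1.71 and 1.12 for Eif2s2, Ccdc107 and Rpph1 (limma adjusted p = 0.00268, 0.00615 and 0.00588), and the count of genes past the test was 50; with array weights it was 1133. Without LAW replicate 2 the adjusted p of Ccdc107 and Rpph1 was 0.0571, and within animal numbers above 30 none of the 3 passed (0.0877 for Eif2s2, 0.555 for Ccdc107 and 0.572 for Rpph1), with the directions unchanged.

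**Figure D5:**
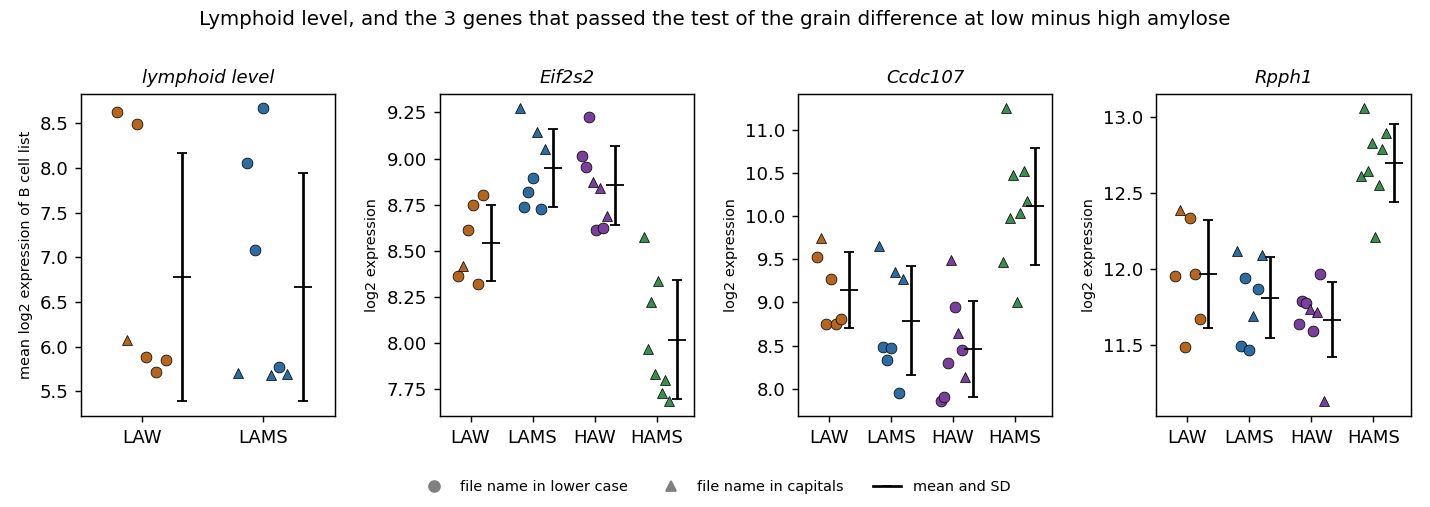
Left panel: mean log2 expression of the 13 tested B cell and germinal centre genes on each LAW and LAMS array. Other panels: log2 expression of Eif2s2, Ccdc107 and Rpph1 on every LAW, LAMS, HAW and HAMS array, with name styles and mean and SD as marked; the HAMS arrays are lowest for Eif2s2 and highest for Ccdc107 and Rpph1 by their means.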

How the data were processed

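RNA from the distal colon of 43 rats on 6 diets was hybridised to Affymetrix arrays. The authors deposited log2 values (1.31 to 14.05) of 29214 probe sets; the submitters' processing notes name RMA, with a version not given in the sources used here. RMA subtracts background, equalises the distributions of the arrays and combines probes, so differences are relative to the bulk of probes. Scanner files were not analysed here. Arrays have no read depth, and their number limits the precision.

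GEO's platform annotation gave 15310 probe sets 1 gene symbol, 323 several and 13581 none. For each of 14506 symbols the probe set with the highest mean over all arrays was taken, and 10828 genes were kept whose median reached the 25th percentile of the single-symbol probe sets (4.79). A mean for each of 6 diets was fitted with limma 3.58.1 (lmFit, eBayes) in R 4.3.3; tests were two-sided with Benjamini-Hochberg adjustment over all genes and a threshold of 0.05. The fit was tested on simulated data with independent noise for each gene. Those data lack the differences between arrays in lymphoid level and name style, so the simulation does not cover them. Array-level values had exact permutation tests over all 1716 splits. The label HAM was read as HAMS.

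Named genes were the 20 of smallest p and the member of smallest p in each list. To these came 11 fixed genes, of which 9 were tested, and up to 5 of the low minus high amylose test. Genes chosen after their values were seen included Retnla, Slpi, Fam111a, Pygl, Akap5, Sat1, Tef, Dbp, Nr1d2, Pigr and Agr2. Members and lists were chosen with earlier results of these data known. Alternatives were other filters, all probe sets, another prior, array weights, fewer diets, centring, blocks by file name style, animal-number range and replicate number, lymphoid level and array spread as covariates, subsets of arrays, and leaving out each array. Replicate numbers 1 to 6 of LAW and LAMS were not taken as pairs. The Retnlb promoter window and the promoter windows searched for motifs came from RefSeq (GRCr8), and figures from matplotlib 3.10.9 in Python 3.11.15.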

Additional observations from a re-analysis of the deposited data

Results flagged for a closer look

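On 3 genes the grain difference at low amylose differed from that at high amylose by a test of the difference itself (limma, adjusted p = 0.00181 to 0.0138): Ccdc107 by 2.003, Eif2s2 by -1.24 and Rpph1 by 1.19 on the log2 scale. These 3 are described above, with the name style that all HAMS arrays share.

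On 6 occasions 1 array stood apart from the others of its diet, by Dixon's criterion over 216 tested groups of 6 or 7 arrays. Chance gives about 5%, a share that these 6 did not exceed. Ctss, a lysosomal protease of antigen-presenting cells, was 10.09 on LAW replicate 6, against 9.79 on the next array. Ifit2, an interferon-induced gene, was 6.84 on LAMS replicate 2, against 6.11 on the next, and the same array was lowest for Krt13, a squamous keratin, at 4.59 against 4.80. Guca2b was 9.05 on LAMS replicate 5, against 8.15 on the next. Dbp was 7.69 on LAMS replicate 3, against 7.95 on the next. Epcam was 10.72 on LAMS replicate 4, which also had the highest lymphoid level of the LAMS arrays, against 11.13 on the next.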

How the results depend on the processing

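The count of genes past the test in LAW minus LAMS was 0 under each of the 28 alternatives, with 116 to 639 genes at an unadjusted p under 0.05, the upper end with array weights. Replicate numbers did not pair LAW with LAMS arrays (correlations of same-numbered arrays from -0.644 to 0.544, and 1 of 6 arrays best with its own number); with the replicate block 0 genes passed in LAW minus LAMS (162 at an unadjusted p under 0.05) and 3 in the test of low minus high amylose. That test, with 3 genes as reported, gave 15 with all probe sets, 1133 with array weights, 50 with name style as a block, 40 with name style and animal-number range as blocks, 5 with the lymphoid level as a covariate and 0 within animal numbers above 30, where 447 had an unadjusted p under 0.05. Leaving out 1 array in turn gave 1 (without LAW replicate 2) to 10 genes (without LAW replicate 6), with 8 without LAMS replicate 2 and 5 without LAMS replicate 1 or 4; the cause was not tested. The lymphoid difference was -0.48 within the lower-case style (exact permutation p = 0.643), -0.0932 within animal numbers above 30 (p = 0.897), and from -0.26 to 0.44 with 1 array left out. The difference in array spread was from -0.0183 to 0.0667 with 1 array left out. None of these array-level alternatives passed 0.05. Of 106 named genes, 25 changed sign under some alternative (112 of 2756 values), none of them called. List medians changed sign in 24 of 176 cases over 4 alternatives (name style as a block, lymphoid level as a covariate, centred arrays and the replicate block), and within the lower-case style in 20 of 44. The number of arrays and, for lymphoid genes, their spread within diets limit what could be detected.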
